A study of Mus musculus with 4 samples.

Results

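Slpi, 1 of the 27998 genes in the count matrices, was followed through the marrow cells of 4 mice, from stem cells to neutrophils and monocytes. The gene was found by its symbol, and its raw UMIs (unique molecular identifiers, each standing for 1 captured transcript) were summed per library within groups of cells gated on marker genes. Slpi was chosen by its genotype difference in UMI level, already seen in these same libraries, so its levels and its genotype difference are described here with no test. Of 16280 cells, 7795 carried at least 1 Slpi UMI.

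The study transplanted marrow cells carrying the Idh1-R132H allele, or cells of the Idh1-WT control, into fully irradiated mice. Tamoxifen was given for 5 days to recombine an EYFP reporter and, in the mutant group, the heterozygous Idh1-R132H allele. EYFP+ lineage-negative marrow cells were sorted 2 weeks later and transplanted with no supporting marrow. Chimeric marrow was collected 16 weeks after the transplant, and 4000 EYFP+ cells of each of 3 populations (CD45.1+ total hematopoietic cells, Lin-Sca1+cKit+ cells named LSK, and Lin-cKit+ cells named LK) were sorted into 1 tube per mouse, 2 mice per group. The Cre driver, the strain, the age and sex of the mice and the number of donors per recipient are not given in the sources used here. The tubes were thus enriched for stem and progenitor cells, and the numbers of cells per gate do not follow the makeup of whole marrow. The R132H substitution itself is not visible in 3′ UMI counts, so the counts do not check the genotype labels.

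Slpi encodes secretory leukocyte protease inhibitor, a small secreted and granule protein built of a pair of whey acidic protein domains. It blocks neutrophil elastase and cathepsin G, serine proteases that developing neutrophils make and store in primary granules. Neutrophils arise from Mpo-expressing progenitors, pass through precursors that make secondary granule proteins such as lactoferrin (Ltf), and end as mature cells that carry Retnlg and Cxcr2. The C/EBP transcription factors control much of the granule program along this path.

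Slpi (ENSMUSG00000017002) lies on the minus strand of chromosome 2 (GRCm38). GENCODE vM21 gives the gene as 164354070 to 164389095, the upper end being set by 1 transcript with an exon far upstream, while RefSeq gives 164354070 to 164356507. The main protein-coding transcript has 4 exons, the first at 164356188 to 164356507 and the last, where 3′ reads would fall, at 164354070 to 164354313. No other gene of the matrices starting within 500000 bases overlapped it. The 250 bases before the RefSeq start (chr2:164356508-164356757, minus strand, RefSeq, GRCm38.p6) are shown because the C/EBP factors are among the regulators followed below, and the capitals mark matches to the C/EBP core TTNNGNAA on either strand.
Slpi promoter: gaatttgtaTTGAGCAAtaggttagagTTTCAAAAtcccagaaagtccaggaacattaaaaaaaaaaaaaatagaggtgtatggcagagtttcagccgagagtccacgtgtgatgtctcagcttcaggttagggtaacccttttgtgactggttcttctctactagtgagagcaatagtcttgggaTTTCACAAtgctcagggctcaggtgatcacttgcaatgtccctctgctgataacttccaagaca
The window held 3 such matches, beginning 241, 223 and 64 bases before the start, and 36.8% of 32851 promoter windows of this length held at least 1. It also held 1 E-box CACGTG, 146 bases before the start, which 6.02% of windows held. No match was found to GAGGAA (PU.1), to TGANTCA (AP-1) or to the NF-kB motif, which 23.3%, 6.75% and 45.8% of windows held. Every motif was searched on both strands. These matches are a description of the letters only.

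The Idh1-R132H libraries held 47025425 and 53387528 UMIs and 3842 and 4430 cells, and the Idh1-WT libraries 56353466 and 40364701 UMIs and 4503 and 3505 cells. Median depth was between 7228 and 8707 UMIs per cell. Gating left 2917 cells (17.9%) with no gate. Of the cells in the stem, Mpo, Ltf and Retnlg gates, between 90.1% and 97.0% also fell in a Leiden cluster of the same gate. This share was 60.5% in the monocyte gate, 55.8% in the T-NK gate, 37.4% in the dendritic gate and 29.6% in the megakaryocyte gate. The summed level of the Ltf markers was 119748 UMIs per 1000000 UMIs of the gate (CPM) in the Ltf gate and 9365 CPM in the Retnlg gate, and that of the Retnlg markers was 4310 and 56463 CPM in the same gates, markers that also chose the cells. In 4 gates the Mpo markers (Mpo, Ms4a3, Nkg7 and Prss57) summed to more than the gate's own markers. The part of each marker in these sums was not separated, so they do not show which of the markers those cells carried. The Mpo markers summed to 4816 CPM beside 2873 CPM of monocyte markers in the monocyte gate and 2999 beside 655.0 CPM in the dendritic gate. Their sum was 5264 beside 4856 CPM in the basophil-mast gate and 2109 beside 1441 CPM in the T-NK gate. The dendritic gate also held 1021 CPM of monocyte markers. Barcodes occurring in more than 1 library numbered 443, and 345 of them were shared by Idh1-R132H 1 and Idh1-WT 1. These 345 had a median of 26895 UMIs in Idh1-R132H 1 and 588 in Idh1-WT 1. The Mpo gate of Idh1-WT 1 held 169 cells with fewer than 2500 UMIs, against 6 and 8 in the Idh1-R132H libraries and 8 in Idh1-WT 2, but they carried 0.754% of the gate's UMIs. With every shared barcode left out, the Mpo-gate Slpi level was 310.3 and 330.6 CPM in Idh1-R132H and 399.4 and 421.0 CPM in Idh1-WT, and all cells together gave 310.5, 330.5, 399.1 and 420.9 CPM in the same order.

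Slpi was highest in the Retnlg gate, the latest neutrophils of the path, in both genotypes. The Retnlg gate had 2146 and 2228 CPM in Idh1-R132H and 3957 and 3951 CPM in Idh1-WT. The monocyte gate had 418.8 and 476.3 CPM in Idh1-R132H and 751.5 and 677.9 CPM in Idh1-WT. Both were far above the stem gate, which had 13.6 and 20.9 CPM in Idh1-R132H and 28.2 and 24.7 CPM in Idh1-WT. Within a library, the Retnlg gate stood above the Ltf gate by 5.01-fold and 5.74-fold in Idh1-R132H and by 6.40-fold and 6.27-fold in Idh1-WT. Over the Mpo gate it stood higher by 6.91-fold and 6.74-fold in Idh1-R132H and by 9.91-fold and 9.39-fold in Idh1-WT, so this span was wider in both Idh1-WT libraries.

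The Ltf gate had 428.7 and 388.2 CPM in Idh1-R132H and 617.9 and 630.2 CPM in Idh1-WT. Its level exceeded that of the Mpo gate of the same library by only 1.38-fold and 1.17-fold in Idh1-R132H and by 1.55-fold and 1.50-fold in Idh1-WT. The order by mean level in Idh1-WT was Retnlg, monocyte, Ltf, Mpo, dendritic, basophil-mast, B, T-NK, megakaryocyte, erythroid and stem. Neighbours whose 2 libraries overlapped in Idh1-WT were basophil-mast with B, B with T-NK, and erythroid with stem. In Idh1-R132H the monocyte and Ltf gates, and the T-NK and megakaryocyte gates, overlapped as well. With Leiden clusters in place of gates the monocyte level in Idh1-WT was 464.4 CPM, below the 653.4 CPM of the Ltf cells, so the order of these 2 rests on how monocytes were chosen.

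**Figure D1:**
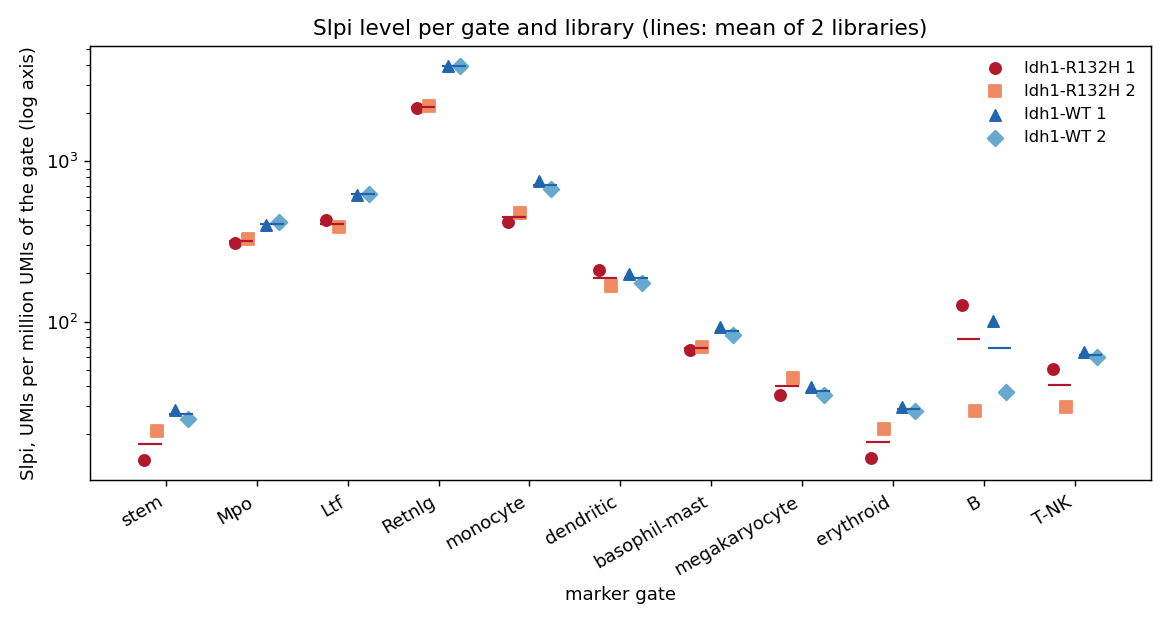
Slpi level in CPM (vertical log axis) in 11 marker gates, with 1 point per library and a line at the mean of the 2 libraries of each genotype. The Retnlg gate stands highest in all 4 libraries, and in the Mpo, Ltf, Retnlg and monocyte gates both Idh1-R132H points lie below both Idh1-WT points. They also do so in the stem, erythroid, basophil-mast and T-NK gates.

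The Mpo gate, although its Slpi level was far lower, held the largest part of all Slpi UMIs because its cells were deep and numerous. It gave 42.1% and 40.8% of the Slpi UMIs of the Idh1-R132H libraries and 34.3% and 37.3% of those of the Idh1-WT libraries. The Retnlg gate, with a median of 1581 UMIs per cell in both Idh1-R132H libraries and 1574 and 1545 in the Idh1-WT libraries, gave 11.1% and 10.9% in Idh1-R132H and 14.97% and 15.70% in Idh1-WT. Over all cells Slpi stood at 228.9 and 240.1 CPM in Idh1-R132H and 335.2 and 325.5 CPM in Idh1-WT, a level set by the mix of gates in each tube.

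Free RNA held some Slpi in every library. Barcodes with at most 50 UMIs, which are empty droplets, had 253.8 and 274.1 CPM of Slpi in Idh1-R132H and 387.0 and 353.2 CPM in Idh1-WT. From neutrophil transcripts in B-gated cells, about 213 and 199 free UMIs per cell were estimated in Idh1-R132H and 191 and 190.3 in Idh1-WT. Expected free Slpi was thus 0.054 and 0.055 UMIs per cell in Idh1-R132H and 0.074 and 0.067 in Idh1-WT. B cells are not known for Slpi, and in the B gate 46 of the 71 Slpi UMIs of Idh1-R132H 1 and 17 of the 47 of Idh1-WT 1 came from a single cell each. Slpi was low in the stem, erythroid, megakaryocyte and T-NK gates, where free RNA makes up more of the count. With the estimated free RNA subtracted, the stem level averaged 18.4 CPM in Idh1-WT, against 26.5 CPM before.

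The share of cells with a Slpi UMI was compared after thinning cells to 1000 UMIs, because gates differed in depth. Cells with fewer UMIs were left out. In the Retnlg gate these were 25 and 47 cells in Idh1-R132H and 56 and 45 in Idh1-WT. In the Mpo gate they were 6 and 8 cells in Idh1-R132H and 163 and 3 in Idh1-WT. In the Retnlg gate 78.8% and 78.0% of Idh1-R132H cells carried Slpi, against 91.2% and 89.6% of Idh1-WT cells (78.4% ± 0.610 and 90.4% ± 1.16, SD, n = 2 each). The exact 95% binomial intervals, which cover counting error only, were 72.9 to 84.0% and 72.1 to 83.1% in Idh1-R132H and 87.3 to 94.2% and 84.8 to 93.3% in Idh1-WT. In the Ltf gate the share was 35.6% and 33.9% in Idh1-R132H and 47.5% and 45.9% in Idh1-WT.

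In the monocyte gate 23.2% and 21.4% of Idh1-R132H cells and 39.5% and 29.8% of Idh1-WT cells carried Slpi at this depth, with the Idh1-WT libraries lying well apart. The Mpo-gate share was 24.0% and 26.4% in Idh1-R132H and 28.2% and 29.6% in Idh1-WT, a mean gap of −3.73 percentage points. At 2000 UMIs the Mpo gap was −10.4. The Retnlg gap at that depth was −11.0, but most cells of this gate have fewer UMIs and were left out. It rests on 80 and 86 cells in Idh1-R132H and 98 and 66 in Idh1-WT. The stem gate had 1.59% and 2.48% in Idh1-R132H and 3.84% and 2.45% in Idh1-WT, which did not exceed the B gate of the same library (5.22% and 3.91% in Idh1-R132H, 8.70% and 2.75% in Idh1-WT). Median depth was between 6456 and 8048 UMIs in the stem gate and between 1701 and 1831 in the B gate. With all UMIs kept, 82.6% and 84.1% of Retnlg-gated cells carried Slpi in Idh1-R132H and 96.2% and 94.7% in Idh1-WT. The unthinned Mpo share was 93.9% and 91.7% in Idh1-R132H and 79.9% and 96.4% in Idh1-WT, and with shared barcodes left out 91.8% and 91.8% in Idh1-R132H and 95.9% and 96.6% in Idh1-WT.

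Carrying cells also differed in how much Slpi they held. At 1000 UMIs per cell, a carrying Retnlg-gated cell had 3.18 and 3.13 Slpi UMIs on average in Idh1-R132H and 4.95 and 4.69 in Idh1-WT. Cells with 8 or more were 6.76% and 2.54% of the gate's thinned cells in Idh1-R132H and 17.9% and 14.5% in Idh1-WT. Cells with none were 21.2% and 22.0% in Idh1-R132H and 8.77% and 10.4% in Idh1-WT. The whole distribution therefore lay lower in Idh1-R132H, at its low and at its high end. In the Ltf gate a carrying cell had 1.78 and 1.68 UMIs in Idh1-R132H and 1.98 and 2.09 in Idh1-WT. Mpo-gated carrying cells had 1.26 and 1.34 in Idh1-R132H and 1.27 and 1.33 in Idh1-WT, close to the 1 UMI that carrying a transcript requires, so no difference is read from them.

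**Figure D2:**
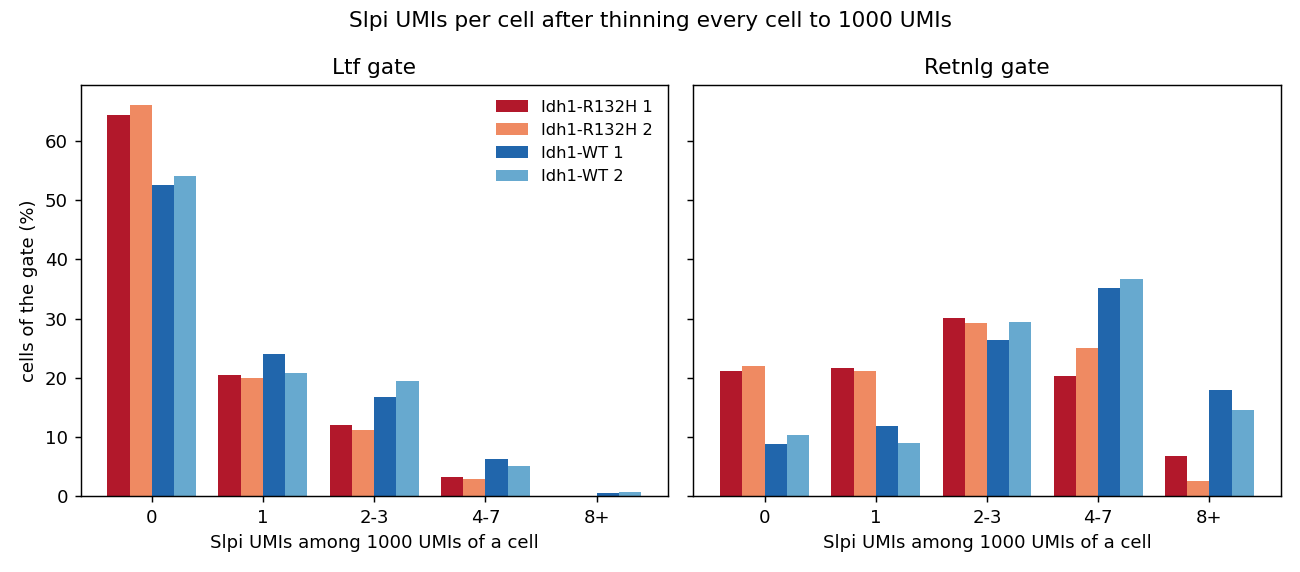
Percentage of cells (vertical axis) with 0, 1, 2 to 3, 4 to 7 or at least 8 Slpi UMIs after thinning to 1000 UMIs. Cells with fewer than 1000 UMIs are left out. The Ltf gate is on the left and the Retnlg gate on the right, with 1 bar per library. In the Retnlg gate the bars at 0 are taller in both Idh1-R132H libraries (21.2% and 22.0%, against 8.77% and 10.4% in Idh1-WT) and those at 8 or more are taller in both Idh1-WT libraries.

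Per transcript captured, Slpi was lower in Idh1-R132H than in Idh1-WT in the Mpo, Ltf, Retnlg and monocyte gates, the 4 myeloid gates. The gap was widest in the Retnlg gate, but this rank depended on how cells were chosen. The monocyte log2 difference was larger in size with Leiden clusters (−1.02 against −0.79) and in Xist-carrying cells (−0.88 against −0.68). In the Retnlg gate Slpi averaged 2187 ± 58.4 CPM in Idh1-R132H and 3954 ± 4.17 CPM in Idh1-WT (SD, n = 2 each). The mean in Idh1-R132H was 55.3% of that in Idh1-WT. The log2 difference was −0.93 (SE 0.13) in the edgeR fit, which scales libraries by TMM, and −0.85 with library totals, the scale of the CPM. Of 3625 genes tested in this gate, 4 passed an edgeR quasi-likelihood adjusted p of 0.05 (0.11% of those tested, 0.0276% being called higher), given as background to a contrast that chose Slpi. Leaving out Retnlg-gated cells under 2500 UMIs, which held between 63.2% and 76.0% of the gate's UMIs, gave 1615 and 1606 CPM in Idh1-R132H and 2636 and 2531 CPM in Idh1-WT, so deeper cells of the gate had less Slpi and the groups still did not overlap.

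The Ltf gate averaged 408.5 ± 28.6 CPM in Idh1-R132H and 624.1 ± 8.71 CPM in Idh1-WT (SD, n = 2 each), a log2 difference of −0.62 (SE 0.12). In this gate 0.149% of 7381 genes passed (0.0542% were called higher). The Mpo gate averaged 320.5 ± 14.2 CPM in Idh1-R132H and 410.0 ± 15.4 CPM in Idh1-WT (SD, n = 2 each), a log2 difference of −0.34 (SE 0.04) and the smallest of the 4 myeloid gates. Here 0.526% of 10844 genes passed. With cells thinned to 1000 UMIs, and those with fewer left out, the log2 difference of the Mpo gate was −0.15. In these gates, too, both Idh1-R132H libraries lay below both Idh1-WT libraries.

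The monocyte gate averaged 447.5 ± 40.6 CPM in Idh1-R132H and 714.7 ± 52.1 CPM in Idh1-WT (SD, n = 2 each), a log2 difference of −0.67 (SE 0.08), and 0.0729% of 9597 genes passed there (0.0625% lower and 0.0104% higher). Monocytes and their progenitors were told apart by Mpo, which only the progenitors carry in quantity. The split was made at 5 Mpo UMIs per 10000 UMIs of a cell, and 528 of the 1365 cells (38.7%) lay between 2.5 and 10, near that limit. Cells at or above it had 467.1 and 559.8 CPM of Slpi in Idh1-R132H and 822.2 and 776.8 CPM in Idh1-WT. Cells below it had 234.2 and 197.4 CPM in Idh1-R132H and 400.9 and 376.8 CPM in Idh1-WT. Slpi was thus higher on the Mpo side of the gate in all 4 libraries, the reverse of the neutrophil path, and lower in Idh1-R132H on both sides (log2 differences −0.63, SE 0.08, and −0.85, SE 0.11).

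Outside the 4 myeloid gates the genotype difference was not seen throughout. Both Idh1-R132H libraries lay below both Idh1-WT libraries in the stem, erythroid, basophil-mast and T-NK gates. The groups overlapped in the dendritic, megakaryocyte and B gates. The dendritic gate had 209.4 and 166.0 CPM in Idh1-R132H and 199.6 and 173.6 CPM in Idh1-WT, with overlapping groups and a log2 difference of 0.03 (SE 0.14). Megakaryocyte cells had 34.7 and 44.4 CPM in Idh1-R132H and 39.0 and 35.0 CPM in Idh1-WT, which also overlapped. These 2 gates shared the fewest cells with Leiden clusters of their own gate (37.4% and 29.6%). Basophil-mast cells had 66.8 and 70.0 CPM in Idh1-R132H and 92.2 and 82.2 CPM in Idh1-WT (log2 difference −0.35, SE 0.12). T-NK cells had 51.0 and 29.4 CPM in Idh1-R132H and 64.5 and 59.9 CPM in Idh1-WT (−0.62, SE 0.30), from between 16 and 30 Slpi UMIs per library. The B gate had a log2 difference of 0.28 (SE 1.15). The dendritic, erythroid, megakaryocyte, basophil-mast, B and T-NK cells summed had 67.3 and 59.0 CPM in Idh1-R132H and 64.6 and 61.0 CPM in Idh1-WT (log2 difference 0.01, SE 0.08). The stem difference was −0.62 (SE 0.18), and −0.79 with the estimated free RNA subtracted. The erythroid difference was −0.65 (SE 0.22), and it was not computed with free RNA subtracted. Free RNA held less Slpi in Idh1-R132H, and its part in the erythroid difference was not tested. Whether the difference in the dendritic gate departs from that in the monocyte gate was not tested.

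**Figure D3:**
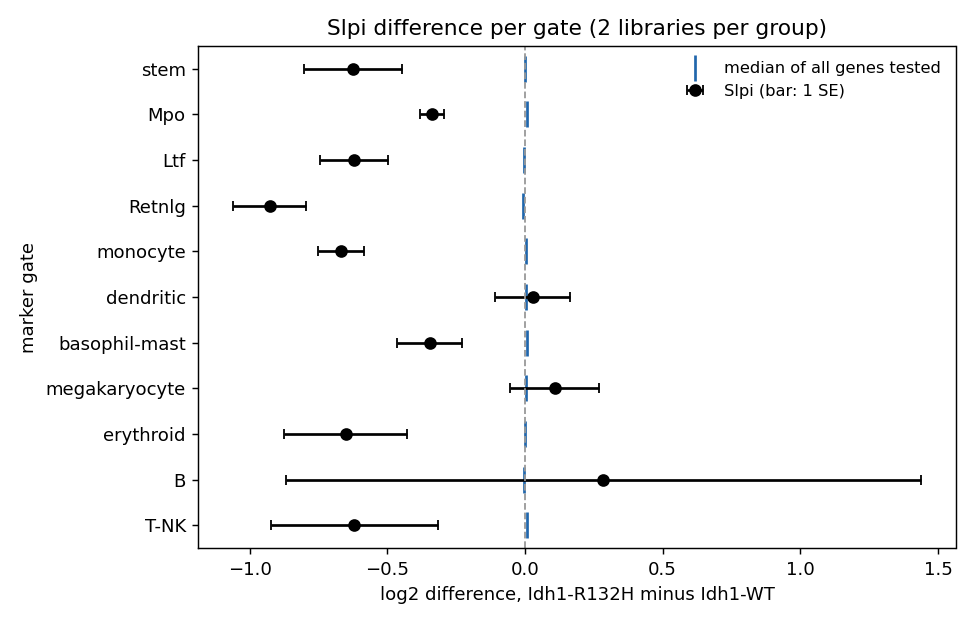
Log2 difference of Slpi, Idh1-R132H minus Idh1-WT (horizontal axis), in 11 marker gates, as points with bars of 1 SE from the edgeR fit on 2 libraries per group, beside the median of all genes tested in the gate (blue ticks). The Retnlg gate lies at −0.93 and the dendritic gate at 0.03, while the medians of all genes lie close to 0.

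The cells of the Mpo, Ltf and Retnlg gates were laid out in 10 bins, gate by gate, by differences of their marker scores. Bins 1 to 4 run from a low to a high Ltf score relative to the Mpo score. Whether this order follows maturation within a gate was not tested. Mpo itself had a mean level of 13132 CPM in bin 1 and 8948 CPM in bin 4, while Retnlg had 134.2 CPM in bin 5 and 56579 CPM in bin 9. Ltf had 20.5 CPM in bin 1, 42.5 CPM in bin 4 and 5993 CPM in bin 5. Within the Mpo gate Ltf thus stayed low while Mpo fell. Slpi did not climb evenly along this order. From bins 1 to 4 it went up from 246.7 and 276.6 to 369.6 and 394.0 CPM in Idh1-R132H, and from 306.2 and 305.1 to 517.3 and 571.7 CPM in Idh1-WT. In bin 5, the first of the Ltf gate, it was lower than in bin 4 in every library, at 207.5 and 206.5 CPM in Idh1-R132H and 227.5 and 289.7 CPM in Idh1-WT.

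After this dip Slpi was higher in each following bin up to bin 9. In bin 7, the last of the Ltf gate, it was 1017.5 and 1009.1 CPM in Idh1-R132H and 1634 and 1584 CPM in Idh1-WT. In bin 9 it was 2919 and 2352 CPM in Idh1-R132H and 3847 and 4223 CPM in Idh1-WT. In bin 10 it was 2483 and 2518 CPM in Idh1-R132H, a level within the range of bin 9, and 5725 and 4923 CPM in Idh1-WT, above bin 9 in both libraries. The log2 difference was −0.20 in bins 1 and 2, −0.41 and −0.49 in bins 3 and 4, −0.31 and −0.41 in bins 5 and 6, −0.69 in bin 7, −0.81 in bin 8, −0.64 in bin 9 and −1.09 (SE 0.12) in bin 10. The differences were thus smallest in bins 1 and 2 and largest in bin 10, with a break at the start of the Ltf gate and another at bin 9. Differences between bins were not tested, and the shares of cells in the bins rest on the same marker scores in both genotypes.

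**Figure D4:**
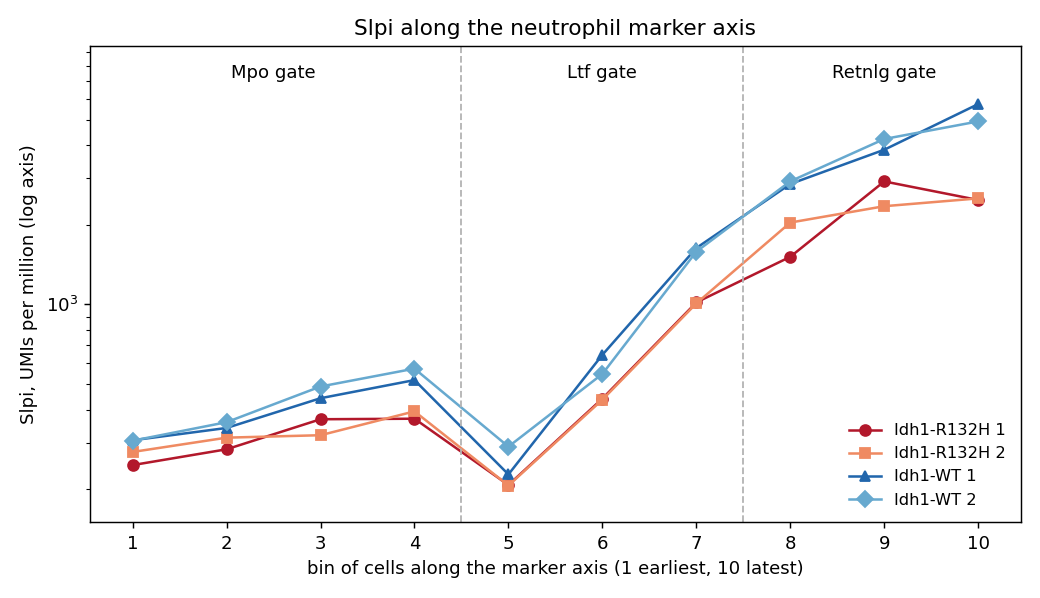
Slpi level in CPM (vertical log axis) in 10 bins of cells ordered by marker scores within the Mpo, Ltf and Retnlg gates (horizontal axis). There is 1 line per library, with dashed lines at the gate borders. Earliest and latest on the axis refer to this order of scores only. All 4 lines dip at bin 5, and the Idh1-R132H lines level off at bin 10 near 2483 and 2518 CPM while the Idh1-WT lines reach 5725 and 4923 CPM.

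Genes with a profile across the 11 gates like that of Slpi were ranked by Pearson's r of mean log2(CPM + 1) among the 3827 genes with at least 50 CPM in some gate. The correlation is over gates that share libraries and is a description. The most alike were Shfm1 (r = 0.971), Msrb1 (0.969, itself a marker of the Retnlg gate), Mtus1 (0.968), Hp (0.958), Sirpa (0.958), Pgd (0.956), Rhog (0.956), Kctd20 (0.953), Gm9733 (0.949) and Bmx (0.949). Hp encodes the haemoglobin-binding protein haptoglobin, Sirpa the receptor of CD47, and Pgd an enzyme of the pentose phosphate pathway. None of the 10 passed edgeR's quasi-likelihood test in the Mpo, Ltf, Retnlg or monocyte gate at an adjusted p of 0.05. In the Retnlg gate the log2 difference was −0.16 for Hp (adjusted p = 0.844), −0.25 for Msrb1 (adjusted p = 0.650), −0.42 for Mtus1 (adjusted p = 0.670) and −0.06 for Sirpa (adjusted p = 0.967).

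The serine proteases of primary granules did not pass the test in any myeloid gate. Elane, neutrophil elastase, is a protease that SLPI blocks. Its level in the Mpo gate was 16374 and 16487 CPM in Idh1-R132H and 16829 and 18033 CPM in Idh1-WT, a log2 difference of −0.07 (SE 0.03, edgeR quasi-likelihood adjusted p = 0.464). Ctsg, cathepsin G, likewise a SLPI target, had 6520 and 6478 CPM in Idh1-R132H and 7295 and 6807 CPM in Idh1-WT there (−0.10, SE 0.04, edgeR adjusted p = 0.276). Prtn3, proteinase 3, a related protease that human SLPI blocks poorly, had 7214 and 6738 CPM in Idh1-R132H and 6635 and 6637 CPM in Idh1-WT (0.09, SE 0.03, edgeR adjusted p = 0.309). The same transcripts in the Retnlg gate, where neutrophils have stopped making them, had log2 differences of 0.11, 0.12 and 0.10 for Elane, Ctsg and Prtn3, with SEs of 0.16, 0.19 and 0.19.

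Of all genes, 1169 of 10844 (Mpo), 348 of 7381 (Ltf), 313 of 3625 (Retnlg) and 574 of 9597 (monocyte) had an unadjusted p under 0.05. Of the 12 tests of these proteases over the 4 myeloid gates, 3 did, while 0 passed with edgeR and 0 with DESeq2. Of these 12 log2 differences the largest in size was that of Elane in the Ltf gate, with 1442 and 1472 CPM in Idh1-R132H and 1078 and 1267 CPM in Idh1-WT (log2 difference 0.31, SE 0.13, edgeR adjusted p = 0.930). Removal of the 5% of cells with the highest doublet scores brought it past the threshold, the 1 of 243 alternative fits of these proteases that did.

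Other protease inhibitors had 4 edgeR calls in 60 tests, in 3 of the 4 gates and all lower, and 1 DESeq2 call. The list was chosen with earlier results of these data known, so these calls are not independent of its choice. The list as a whole was not lower. Log2 differences below 0 were seen in 5 of 14 members in the Mpo gate and 6 of 17 in the Ltf gate. In the Retnlg gate they were seen in 7 of 14, and in the monocyte gate in 5 of 15. Of 35 listed genes 34 were in the matrices. In the Ltf gate 2 of 17 tested fell, where 0.0948% of all genes were called lower. Stfa1 had 7.96 and 3.52 CPM in Idh1-R132H and 44.7 and 29.1 CPM in Idh1-WT, a log2 difference of −2.85 (SE 0.29, edgeR adjusted p = 3.3e-11). BC100530 had 1.84 and 1.76 CPM in Idh1-R132H and 14.0 and 11.1 CPM in Idh1-WT (−2.81, SE 0.46, edgeR adjusted p = 2.9e-05). Both encode stefins of the A type, inhibitors of cysteine cathepsins, a protease class that SLPI does not target. Stefin A genes are near copies of one another, so reads may be split among them. The Stfa1 call held without each library in turn and was lost with Leiden clusters and in Xist-carrying cells. That of BC100530 was lost with Leiden clusters, with DESeq2 and without Idh1-R132H 2 or Idh1-WT 1, and the gene was not tested with a gate lead of at least 1 or in Xist-carrying cells.

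In the Retnlg gate 1 of 14 inhibitors tested fell, where 0.0828% of all genes were called lower. This was Stfa3, another stefin, with 0 and 5.50 CPM in Idh1-R132H and 33.7 and 71.0 CPM in Idh1-WT (log2 difference −4.07, SE 0.69, edgeR adjusted p = 0.0207). This call was lost with free RNA subtracted (adjusted p = 0.767), with library totals, with DESeq2 and without Idh1-WT 2. Stfa3 did not pass the low-count filter with a gate lead of at least 1 or in Xist-carrying cells, so it was not tested there. Of 14 tested in the Mpo gate 1 fell, where 0.369% of all genes were called lower. Serpinb1a, a serpin that, like SLPI, blocks the neutrophil serine proteases, had 575.2 and 568.1 CPM in Idh1-R132H and 635.4 and 699.3 CPM in Idh1-WT (log2 difference −0.21, SE 0.04, edgeR adjusted p = 0.0189). Its call held in 11 of 21 alternative settings and was lost, among others, with the shared barcodes left out, with DESeq2 and without Idh1-R132H 2 or Idh1-WT 2. In the Ltf gate it had 908.2 and 794.0 CPM in Idh1-R132H and 803.8 and 852.8 CPM in Idh1-WT, with overlapping groups.

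None of 15 inhibitors tested in the monocyte gate passed with edgeR or DESeq2, where 0.0729% of all genes passed edgeR. An unadjusted p under 0.05 was seen in 1 of them and in 574 of all 9597 genes. Of the abundant inhibitors, Wfdc21, a relative of Slpi with a whey acidic protein domain, had 8038 and 6972 CPM in Idh1-R132H and 6930 and 7141 CPM in Idh1-WT in the Ltf gate (log2 difference 0.09, SE 0.14). Cst3, the cysteine protease inhibitor cystatin C, had 2023 and 2148 CPM in Idh1-R132H and 2086 and 2207 CPM in Idh1-WT in the monocyte gate (−0.03, SE 0.07). The median log2 difference of the list was 0.08 in the Mpo gate, 0.05 in the Ltf gate, 0.01 in the Retnlg gate and 0.14 in the monocyte gate, beside medians of all genes of 0.01, 0.00, −0.01 and 0.00.

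Secondary and tertiary granule genes, which are made at the Ltf and Retnlg stages where Slpi goes up, had 1 call in 80 tests over the 4 gates. It was Cybb, the membrane subunit of the phagocyte NADPH oxidase, which rose in the Mpo gate with 21.7 and 23.9 CPM in Idh1-R132H and 17.3 and 15.3 CPM in Idh1-WT (log2 difference 0.49, SE 0.11, edgeR adjusted p = 0.0414), where 0.157% of all genes were called higher. This call was lost with DESeq2, with cells thinned to 1000 UMIs, without Idh1-R132H 2, Idh1-WT 1 or Idh1-WT 2, in Xist-carrying cells (log2 difference 0.30) and in Y-linked cells (0.72). DESeq2 called none of the 80. An unadjusted p under 0.05 was seen in 12. Of all genes it was seen in 1169 of 10844 (Mpo), 348 of 7381 (Ltf), 313 of 3625 (Retnlg) and 574 of 9597 (monocyte). Among Retnlg-gated cells 18 of 21 genes of this list had a log2 difference below 0, with a median of −0.16. Of all 3625 genes 51.0% did, with a median of −0.01. Among the most abundant there, S100a8, listed although its protein is cytosolic, had 176234 and 168317 CPM in Idh1-R132H and 174142 and 192091 CPM in Idh1-WT (−0.16, SE 0.12). Lyz2, lysozyme, had 9555 and 9613 CPM in Idh1-R132H and 10088 and 12129 CPM in Idh1-WT (−0.29, SE 0.14, edgeR adjusted p = 0.570).

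Of 16 genes that regulate Slpi or the granulocyte program, 15 were in the matrices. None passed with edgeR or DESeq2 in any of 48 tests. Of all genes tested, 0.526% (Mpo), 0.149% (Ltf), 0.11% (Retnlg) and 0.0729% (monocyte) passed edgeR. An unadjusted p under 0.05 was seen in 4 of the 48 tests. Of all genes it was seen in 1169 of 10844 (Mpo), 348 of 7381 (Ltf), 313 of 3625 (Retnlg) and 574 of 9597 (monocyte). Cebpe, the C/EBP factor of secondary granule formation, had 670.6 and 673.7 CPM in Idh1-R132H and 680.4 and 775.1 CPM in Idh1-WT in the Ltf gate (log2 difference −0.12, SE 0.13). Spi1, which encodes PU.1, had 709.8 and 711.6 CPM in Idh1-R132H and 734.1 and 780.9 CPM in Idh1-WT in the Retnlg gate (−0.16, SE 0.15). Csf3r, the receptor of granulocyte colony-stimulating factor, had 386.6 and 460.4 CPM in Idh1-R132H and 514.5 and 468.1 CPM in Idh1-WT there (−0.29, SE 0.16, edgeR adjusted p = 0.670). In that gate 9 of 10 regulators tested had a log2 difference below 0, with a median of −0.20. Of all genes tested there 51.0% did, with a median of −0.01. Of 14 regulators in the Mpo gate 4 did, with a median of 0.08, beside 47.9% of all genes and a median of 0.01. Lef1, which drives SLPI in human myeloid progenitors, did not reach the count needed for a test in these 4 gates.

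No neighbour of Slpi on chromosome 2 was called. Of 54 genes of the matrices starting within 500000 bases, none passed in 48 tests over the 4 gates with edgeR or DESeq2. Few of all genes passed edgeR either, 0.526% (Mpo), 0.149% (Ltf), 0.11% (Retnlg) and 0.0729% (monocyte). An unadjusted p under 0.05 was seen in 2 of the 48, beside the counts of all genes given for the regulators. The neighbours tested had a median log2 difference of −0.02 (Mpo), −0.05 (Ltf), 0.02 (Retnlg) and −0.04 (monocyte). Those tested numbered 14 in the Mpo gate, 11 in the Ltf gate, 8 in the Retnlg gate and 15 in the monocyte gate. The next genes, Svs5 and Matn4, were at or near 0 in marrow. Ywhab, an adaptor protein gene that binds phosphorylated partners, had 98.2 and 128.4 CPM in Idh1-R132H and 129.8 and 104.3 CPM in Idh1-WT in the Retnlg gate (log2 difference −0.12, SE 0.22), with overlapping groups.

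Each library held cells with Xist UMIs and cells with UMIs of Y-linked genes, so cells of both sexes were present, in unequal parts. In the Mpo gate, cells with Xist and no Y-linked UMI made up 50.8% and 38.8% in Idh1-R132H and 64.2% and 55.7% in Idh1-WT. Their Slpi level was 284.9 and 320.1 CPM in Idh1-R132H and 398.7 and 418.5 CPM in Idh1-WT. Cells with a Y-linked and no Xist UMI had 350.8 and 334.7 CPM in Idh1-R132H and 439.0 and 474.6 CPM in Idh1-WT. The log2 difference in the Mpo gate was −0.42 among the Xist cells and −0.40 among the Y-linked cells. Both were larger in size than the −0.34 (SE 0.04) of all cells of the gate. Among Xist cells it was −0.61 in the Ltf gate, −0.68 in the Retnlg gate and −0.88 in the monocyte gate, the Retnlg value resting on between 22 and 38 cells per library. Y-linked cells of the Ltf gate had 257.7 and 363.7 CPM in Idh1-R132H and 437.7 and 480.6 CPM in Idh1-WT. In the monocyte gate the Y-linked cells overlapped between genotypes, with 486.3 and 549.6 CPM in Idh1-R132H and 532.0 and 716.0 CPM in Idh1-WT. They also overlapped in the Retnlg gate, with 1400 and 2722 CPM in Idh1-R132H (18 and 22 cells) and 1805 and 3916 CPM in Idh1-WT (7 and 8 cells).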

How the data were processed

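The values deposited by the authors are whole UMI counts for each gene in each droplet, cells and empty droplets alike, from 10x 3′ v2 libraries per the labels' protocols. The submitters' processing notes name Cell Ranger 4.0.0, Seurat and the build GRCm38 (mm10). A barcode counted as a cell with 500 or more UMIs, 200 or more genes and no more than 10% of its UMIs mitochondrial. Scrublet called 111 doublets (0.682%), and none were removed. Each cell took the gate of its highest standardised marker score (71 markers, 11 lists) if that reached 0.75 and led by 0.25, limits set after the scores were seen. The dendritic, erythroid, megakaryocyte, basophil-mast, B and T-NK cells are also given summed, as other cells. Free RNA was estimated from S100a8 and S100a9 in B-gated cells (mean without the outer 10%).

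Counts were summed per library and gate. Genes passing filterByExpr were fitted with edgeR 4.0.16 (quasi-likelihood, TMM, robust, R 4.3.3; Benjamini-Hochberg over all genes of the gate), and DESeq2 1.42.0 was an alternative. The fit was tested on simulated data. Clustering used scanpy 1.11.5 with Slpi left out of the variable genes. CPM are UMIs of a gene per 1000000 UMIs of the gate. Bins hold equal cell numbers within a gate. Cells were ordered by the Ltf minus the Mpo score in the Mpo gate and the Retnlg minus the Mpo score in the Ltf gate. In the Retnlg gate the order was by the Retnlg minus the Ltf score. Slpi, the markers, gene lists and comparisons were chosen with earlier results of these data known. Named genes are Slpi, the 10 genes most alike in profile, list members that passed, the 3 proteases and up to 3 abundant members per list. The list of inhibitors also holds Cstf2, which is none. The granule list also holds genes whose proteins are not stored in granules, S100a8 and S100a9 among them. The labels give 1 mouse per library and do not say whether donors differed, so p-values measure the spread between these mice. In total 27645 features (98.7%) matched GENCODE vM21. Intervals cover counting error only.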

Additional observations from a re-analysis of the deposited data

How the results depend on the processing

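The Slpi difference stayed below 0 in the stem, Mpo, Ltf, Retnlg and monocyte gates under every alternative run. It moved by more than its SE as follows. A gate lead of at least 1 gave −0.27 (Mpo), −0.45 (Ltf) and 0.12 (other cells). Thinning to 1000 UMIs gave −0.15 (Mpo), −0.83 (monocyte) and 0.12 (other cells). Leiden clusters gave −0.79 (Retnlg) and −1.02 (monocyte), so the widest gap then lay in the monocytes. Xist-carrying cells gave −0.42 (Mpo), −0.68 (Retnlg), −0.88 (monocyte) and −0.17 (other cells), and Y-linked cells, added after the data were seen, −1.42 (stem), −0.40 (Mpo) and −0.77 (other cells). With 1 library left out in turn, a fit that lends the lone library the spread of the other group, it ranged from −0.98 without Idh1-R132H 2 to −0.34 without Idh1-R132H 1 (stem), and from −0.39 to −0.29 (Mpo), −0.72 to −0.51 (Ltf), −0.99 to −0.90 (Retnlg), −0.76 to −0.57 (monocyte) and from −0.075 to 0.095 (other cells). With the replicate block it was −0.34 (Mpo), −0.62 (Ltf), −0.93 (Retnlg) and −0.67 (monocyte). Same-numbered libraries did not deviate together (correlations from −0.10 to 0.06), so they are not taken as pairs, and the block ended the calls of Serpinb1a (adjusted p = 0.0863, edgeR) and Cybb (adjusted p = 0.107, edgeR). The cause of these shifts was not tested.

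The Idh1-WT level under Leiden clusters was 528.2 (Mpo), 653.4 (Ltf), 4135 (Retnlg), 464.4 (monocyte) and 119.7 CPM (other cells), so the monocyte level then lay below the Ltf level. With free RNA subtracted it was 18.4 (stem), 4375 (Retnlg) and 56.5 CPM (other cells). The Mpo difference in the share of carrying cells, −3.73 percentage points at 1000 UMIs, reversed to 4.65 with all UMIs kept, where the low-UMI barcodes of Idh1-WT 1 count as cells without Slpi. At 2000 UMIs the difference was −10.4 (Mpo), −14.9 (Ltf) and −11.0 (Retnlg, with most cells of the gate left out).

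Counts of genes called, 57 (Mpo), 11 (Ltf), 4 (Retnlg) and 7 (monocyte), depended strongly on the setting. In the Mpo gate they were 86 without the top 5% of doublet scores, 31 with Leiden clusters, 21 in Xist-carrying cells, 37 without shared barcodes, 98 with library totals, 26 with DESeq2, 212 with no low-count filter and 31 with the replicate block. In the Ltf gate the same settings gave 27, 0, 1, 6, 6, 2 and 21, the block giving 11. In the Retnlg gate they were 9 without top doublet scores, 0 with a gate lead of at least 1, 15 with Leiden clusters, 0 with library totals, 1 with DESeq2, 13 with no filter and 11 with the block. In the monocyte gate they were 12 with a gate lead of at least 1, 30 with Leiden clusters, 22 without shared barcodes, 4 with DESeq2, 55 with no filter and 88 with the block. Leaving out 1 library gave 50 to 142 (Mpo, highest without Idh1-R132H 1), 1 to 31 (Ltf, lowest without Idh1-R132H 2, highest without Idh1-R132H 1), 3 to 152 (Retnlg, highest without Idh1-WT 1) and 1 to 65 (monocyte, lowest without Idh1-WT 1, highest without Idh1-R132H 1).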

Other observations

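Of the genes called lower in Idh1-R132H in the Mpo, Ltf, Retnlg or monocyte gate by edgeR's quasi-likelihood test, Dmkn and Trem3 were called in 2 each, the Mpo and monocyte gates, and Gdpd3 in 2, the Mpo and Ltf gates. The 5 largest falls in the Mpo gate were those of Retn (log2 difference −3.56, SE 0.55), Slc4a8 (−1.01, SE 0.13), Dmkn (−0.98, SE 0.06), Pnp2 (−0.82, SE 0.18) and Ly86 (−0.76, SE 0.09), the last a marker of the monocyte gate. Retn was near the floor there, with a mean log2 CPM of 0.19. Transcripts of the Rosa26 locus, Gt(ROSA)26Sor, rose in the Mpo gate (1.00, SE 0.13), the Ltf gate (1.51, SE 0.33) and the monocyte gate (1.42, SE 0.23).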
